A study of Mus musculus with 6 samples.

Results

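The 79 odorant receptor genes numbered Olfr829 to Olfr986 were described in the olfactory epithelium of mouse embryos, the sensory sheet of the nose. They are all array clusters to which the platform annotation gives a single gene with a symbol in this range and no pseudogene suffix, 79 of the 711 odorant receptors on the array and of 16661 clusters tested. A GRCm38.p6 gene table placed all 79 on chromosome 9. They were taken as 2 blocks by number, 21 receptors from Olfr829 to Olfr873 and 58 from Olfr874 to Olfr986. The table lists 77 as protein coding, Olfr908 as a transcribed pseudogene and Olfr915 as a miscellaneous RNA. Both genotypes were collected at ED18.5, late in gestation. The arrays labelled knockout held RNA of Emx2 knockout embryos, whose allele the sources used here do not describe, and the wildtype arrays held RNA of embryos homozygous for wildtype Emx2. There were 3 arrays per genotype. Each array held RNA pooled in equal amounts from 3 animals, so a pool and not an animal is the replicate.

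Odorant receptors are G protein-coupled receptors by which olfactory neurons sense odorants. Each mature olfactory neuron expresses a single receptor gene out of the whole repertoire, so in a whole tissue the signal of a receptor depends on how many neurons chose it and on how much receptor RNA each holds. Receptor genes lie in clusters of related copies, and homeodomain factors such as Lhx2 and Emx2 and the Ebf factors are known to bind short motifs before their starts. The promoter of M71 (Olfr151), a receptor just before Olfr874 in the gene table, is a classic example. In bulk tissue, fewer neurons that express a receptor and less receptor RNA per neuron cannot be told apart.

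RefSeq windows of the 250 bases before the annotated start (GRCm38.p6) were found for 68 of the 79 receptors. In 44 of them the annotated start is itself an ATG, as where a gene model holds coding sequence alone, so that these windows need not be promoters. The other 24 are described here, beside 141 such windows of other receptors and 25200 of the whole table. Some of the 24 have short gene models too, such as Olfr845 and Olfr846 with 942 bases, beside 948 for Olfr850, whose start is an ATG. The windows of the 24 therefore need not be promoters either. The homeodomain core TAATNA, read on both strands with its palindrome TAATTA counted once, was present in 20 of the 24 (83.3%), against 63.1% of the windows of other receptors and 23.0% of all. The Ebf core CCCNNGGG was present in 1 of the 24 (4.17%), against 8.51% and 12.1%, and TATAAA on either strand in 9 (37.5%), against 31.9% and 11.8%. Receptor windows are rich in A and T, with a median of 66.4% in the 24 and of 47.2% in all windows, and the part of base composition in these shares was not tested. The windows of 5 receptors are printed, each before a start that is not an ATG, since they cover receptors that fell and receptors that did not. Olfr868, Olfr921 and Olfr943 fell in the arrays labelled knockout, Olfr860 lay near 0 and Olfr872 had the largest positive difference of its block. Capitals mark TAATNA on either strand, and each is read 5′ to 3′ along its gene. The windows lie at chr9:20098376-20098625 on the plus strand for Olfr868, chr9:38772838-38773087 on the plus strand for Olfr921, chr9:39166060-39166309 on the plus strand for Olfr943, chr9:19849748-19849997 on the minus strand for Olfr860 and chr9:20236912-20237161 on the plus strand for Olfr872.
Olfr868: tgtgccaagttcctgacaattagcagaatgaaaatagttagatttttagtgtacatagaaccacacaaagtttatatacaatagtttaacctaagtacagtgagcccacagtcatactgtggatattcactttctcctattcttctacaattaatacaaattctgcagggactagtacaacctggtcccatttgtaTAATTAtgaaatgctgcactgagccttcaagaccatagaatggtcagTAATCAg
Olfr921: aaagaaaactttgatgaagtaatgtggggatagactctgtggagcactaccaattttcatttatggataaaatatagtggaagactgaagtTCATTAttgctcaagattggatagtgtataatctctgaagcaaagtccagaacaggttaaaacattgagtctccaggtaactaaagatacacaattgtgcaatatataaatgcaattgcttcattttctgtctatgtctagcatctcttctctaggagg
Olfr943: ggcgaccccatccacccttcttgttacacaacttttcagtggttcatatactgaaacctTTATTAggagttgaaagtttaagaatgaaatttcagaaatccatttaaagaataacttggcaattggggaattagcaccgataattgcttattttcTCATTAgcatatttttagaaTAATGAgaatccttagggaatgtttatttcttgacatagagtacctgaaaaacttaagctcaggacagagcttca
Olfr860: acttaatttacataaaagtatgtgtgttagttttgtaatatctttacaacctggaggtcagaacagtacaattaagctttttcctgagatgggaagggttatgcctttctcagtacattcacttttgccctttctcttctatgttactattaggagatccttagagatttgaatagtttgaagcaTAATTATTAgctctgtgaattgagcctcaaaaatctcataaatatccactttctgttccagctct
Olfr872: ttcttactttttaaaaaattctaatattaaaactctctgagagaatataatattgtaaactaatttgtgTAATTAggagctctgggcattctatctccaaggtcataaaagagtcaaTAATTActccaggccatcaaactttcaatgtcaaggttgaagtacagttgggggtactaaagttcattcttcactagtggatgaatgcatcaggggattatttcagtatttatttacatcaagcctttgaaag
All 6 windows of receptors that fell among the 24 hold the homeodomain core, and so do the printed windows of Olfr860 and Olfr872, which were not called. The windows without it among the 24 are those of Olfr846, Olfr875, Olfr922 and Olfr985, which were not called either. The difference between called and uncalled receptors was not tested. A match describes letters and not a bound site.

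Values are log2 RMA signals, 1 per cluster and array, so that a difference of -1 stands for a 2-fold lower signal in the arrays labelled knockout. Signals of different clusters come from different probes and are not set against each other as amounts of RNA. The array medians over all clusters lay between 7.64 and 7.73. Emx2, the targeted homeodomain gene, averaged 8.37 ± 0.03 in the arrays labelled knockout and 8.44 ± 0.13 in wildtype arrays (SD, n = 3 each), a difference of -0.07 (limma adjusted p = 0.894). The sources used here do not say whether its probes lie outside the deleted part, and the directions below rest on the labels. Omp, the standard marker of mature olfactory neurons, averaged 11.39 ± 0.21 in the arrays labelled knockout and 12.24 ± 0.37 in wildtype arrays (SD, n = 3 each), a difference of -0.85 that was not called (limma adjusted p = 0.120). Nothing in the labels says that the pools of a genotype came from separate litters, so p-values measure the spread between these pools.

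Most of the receptors had lower signal in the arrays labelled knockout. Of the 79, 66 had a negative log2 difference and 13 a positive one, beside 10270 and 6391 of all 16661 clusters. The median was -0.54 with quartiles of -1.07 and -0.15, against a median of -0.04 over all clusters. Among the 79, 15 receptors fell (limma, adjusted p at or under 0.05 over all 16661 clusters), which is 19.0% where 1.90% of all clusters fell. None rose (limma, where 0.144% of all clusters rose), and at an unadjusted p under 0.05 the counts were 45 lower and 0 higher (8.33% and 1.81% of all clusters). The other 632 odorant receptors had a median of -0.67 with 172 lower (27.2%) and 7 higher, and the difference from them was not tested. Values at least 2-fold lower were found for 22 of the 79 (27.8%; 2.02% of all clusters). The 3 arrays labelled knockout all lay below the 3 wildtype arrays for 40 receptors (50.6%; 12.0% of all clusters), and 25 of these 40 did not pass limma's threshold (adjusted p from 0.0602 to 0.471). Olfr872 alone lay above on all 3 (3.51% of all clusters). The count of 15 was 5 when knockout replicate 1 was left out and 8 when knockout replicate 2 or 3 or wildtype replicate 3 was. Over all clusters the share that fell was 0.870% in the first of these fits and 0.900% to 1.11% in the others. Of the 8, 7 were among the 15 without knockout replicate 2, and 7 without knockout replicate 3. When the unannotated probe sets were tested too the count was 6 (0.620% of 23238 probe sets fell). With Y-linked signal as a covariate it was 10 (1.12% of all clusters).

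**Figure D1:**
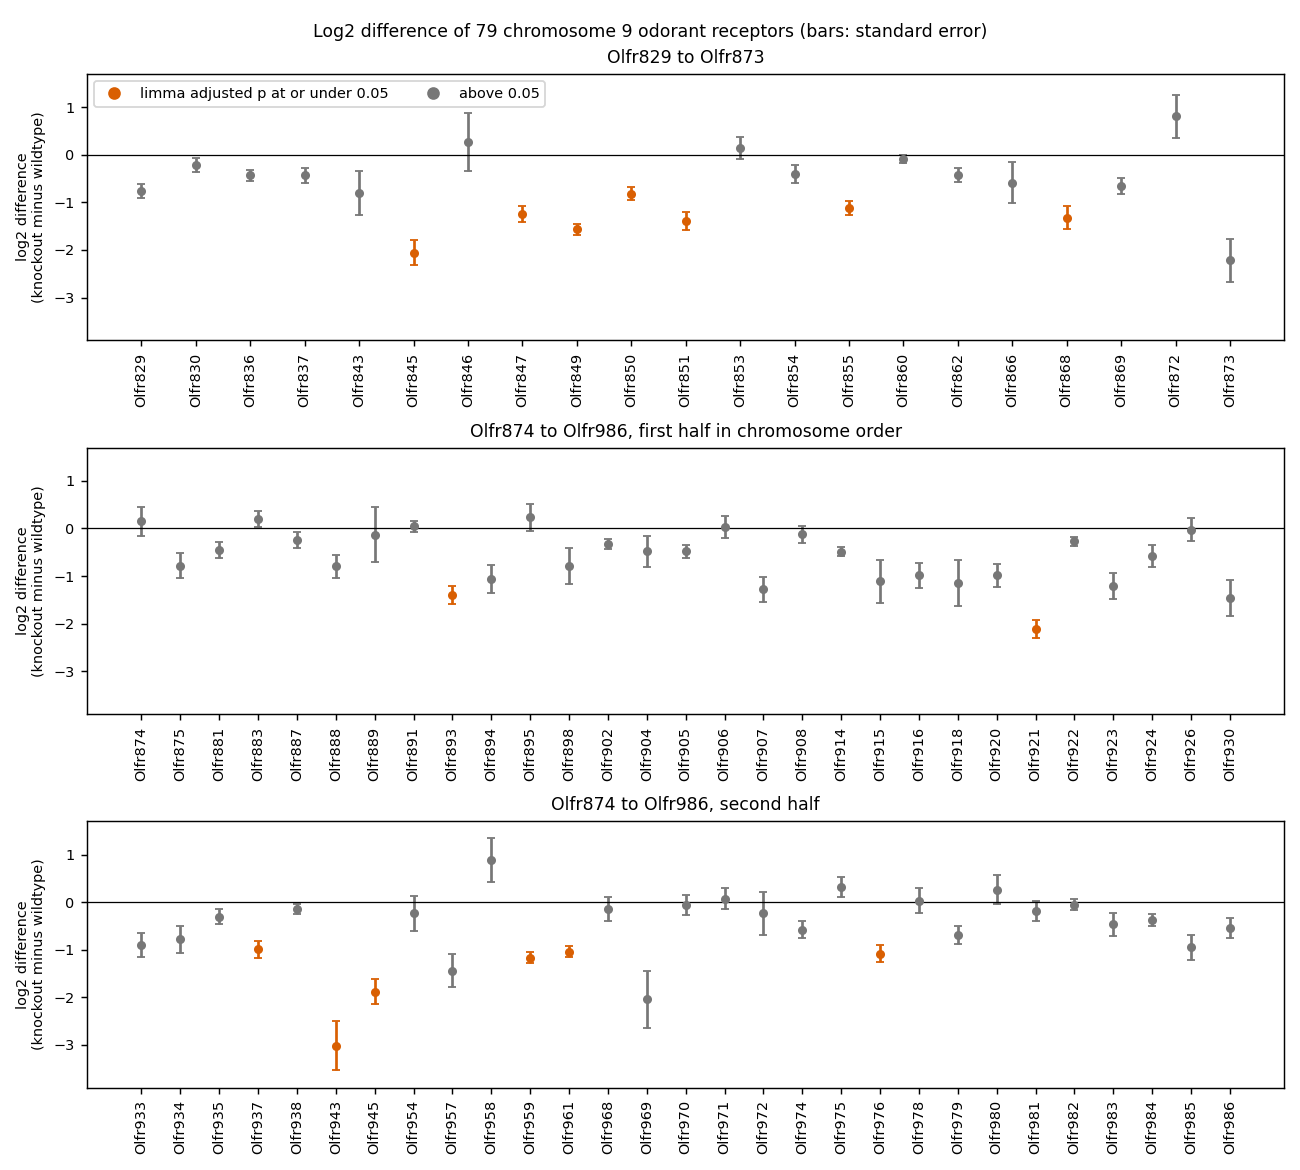
Log2 difference (knockout minus wildtype, vertical axis) of each of the 79 receptors in chromosome order along the horizontal axis, with bars for the standard error of the limma fit. The 15 receptors in orange fell, 7 of them between Olfr845 and Olfr868 and 8 between Olfr893 and Olfr976, and 13 receptors lie above 0, all in grey.

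The mean over the 79 receptors was 4.03 ± 0.06 (SD, n = 3) in the arrays labelled knockout and 4.68 ± 0.08 (SD, n = 3) in wildtype arrays. Markers of the tissue moved in the same arrays. Of 14 measured markers of mature olfactory neurons, which carry the receptors, 5 fell and 0 rose (limma), with a median of -0.78. Their mean signal was 8.41 to 8.63 in the arrays labelled knockout and 9.10 to 9.46 in wildtype arrays. The 5 were S100a5, a calcium-binding protein, at -2.29, Ano2, the chloride channel of odorant transduction, at -1.21, Cidea at -1.20, Rtp2, which carries receptors to the cell surface, at -1.09 and Umodl1 at -1.07. All 12 measured markers of mesenchyme, cartilage and bone had a positive difference, with a median of 0.36, and 1 rose, the collagenase Mmp13 at 1.31. Their mean signal was 9.41 to 9.62 in the arrays labelled knockout and 8.96 to 9.13 in wildtype arrays, and none of the 12 averaged under 6.93. Markers of immature neurons had a median of -0.30 with 2 of 8 that fell, and those of progenitors -0.28 with 1 of 8. Sustentacular (7 genes), skeletal muscle (5) and ciliated cell (6) markers had medians of 0.20, 0.53 and -0.05 with 0 calls (limma; 2, 0 and 0 at an unadjusted p under 0.05). The part of these cell types in the receptor values was not tested.

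Around the receptors, the machinery that they work through was measured as well. Of 17 measured genes of odorant transduction and receptor trafficking, 2 fell (Ano2 and Rtp2) and 0 rose, with a median of -0.43. Rtp1, the partner of Rtp2 in bringing receptors to the surface, was at -0.83 (limma adjusted p = 0.0610). Of 19 measured genes of receptor choice and chromatin, 0 fell and 0 rose (limma; 3 had an unadjusted p under 0.05), with a median of -0.03. The smallest p-values of that list belonged to the transcription factors Ebf4, at -0.35 (limma adjusted p = 0.260), and Atf5, at -0.37 (limma adjusted p = 0.360).

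The 21 receptors from Olfr829 to Olfr873 had a median log2 difference of -0.66, with 18 negative and 3 positive. Among them 7 fell (33.3%), and they stand within a stretch of 13 neighbouring members from Olfr845 to Olfr868. The mean of this block was 3.84 ± 0.10 (SD, n = 3) in the arrays labelled knockout, between 3.77 and 3.95, and 4.57 ± 0.08 (SD, n = 3) in wildtype arrays, between 4.49 and 4.65. The count of 7 was 2 when knockout replicate 1 was left out, 3 for knockout replicate 2 or wildtype replicate 3, and 4 for knockout replicate 3 or wildtype replicate 1. When the unannotated probe sets were tested too it was 3. The 4 without knockout replicate 3 include Olfr873, which was not among the 7. Over the whole series the share that fell was 0.620% to 1.24% in these fits, against the 1.90% given above.

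Olfr849, a receptor of the MOR151 family (family numbers group mouse receptors by protein sequence), was at 4.48, 4.43 and 4.17 in the arrays labelled knockout and at 5.85, 6.04 and 5.89 in wildtype arrays. The groups lay well apart, with little spread in either. It fell by 1.56 (SE 0.11; limma adjusted p = 0.00215), a 2.96-fold lower signal, and stayed past the threshold with any single array left out (highest adjusted p = 0.0128, without wildtype replicate 3). Olfr845, of the MOR150 family, was at 4.22, 3.96 and 5.05 in the arrays labelled knockout and at 6.38, 6.54 and 6.48 in wildtype arrays. The wildtype arrays lay close together and knockout replicate 3 stood above the other two of its group, still below every wildtype array. The log2 difference was -2.06 (SE 0.26; limma adjusted p = 0.0138). The call was lost in 2 of 6 fits that each lacked 1 array (limma adjusted p up to 0.0628, when knockout replicate 1 was missing).

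Olfr847, of the MOR149 family, was at 3.40, 3.71 and 3.61 in the arrays labelled knockout and at 4.64, 5.16 and 4.66 in wildtype arrays, without overlap (-1.24, SE 0.16; limma adjusted p = 0.0147). Olfr851, of the MOR155 family, was at 3.88, 4.03 and 4.33 in the arrays labelled knockout and at 5.50, 5.76 and 5.13 in wildtype arrays (-1.38, SE 0.19; limma adjusted p = 0.0162). Olfr855, of the MOR148 family, was at 4.51, 4.41 and 4.10 in the arrays labelled knockout and at 5.22, 5.52 and 5.63 in wildtype arrays (-1.12, SE 0.15; limma adjusted p = 0.0167). In all 3 the highest knockout array lay well below the lowest wildtype array. Olfr850, of the MOR147 family, was at 3.54, 3.84 and 3.65 in the arrays labelled knockout and at 4.29, 4.75 and 4.43 in wildtype arrays (-0.81; limma adjusted p = 0.0424). Olfr868, of the MOR145 family, was at 4.38, 4.20 and 4.77 in the arrays labelled knockout and at 6.09, 5.29 and 5.96 in wildtype arrays (-1.32; limma adjusted p = 0.0478). It was the last receptor of the block inside the threshold, and Olfr829 at -0.77 (limma adjusted p = 0.0602) the first outside it, also without overlap between the groups. In the 6 fits that each lacked 1 array, the limma call was lost for Olfr847 in 2 (adjusted p up to 0.0686, without knockout replicate 3), Olfr851 in 3 (0.0674, without knockout replicate 1), Olfr855 in 4 (0.0585, without wildtype replicate 2), Olfr868 in 5 (0.175) and Olfr850 in 6 (0.164, both without knockout replicate 1).

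**Figure D2:**
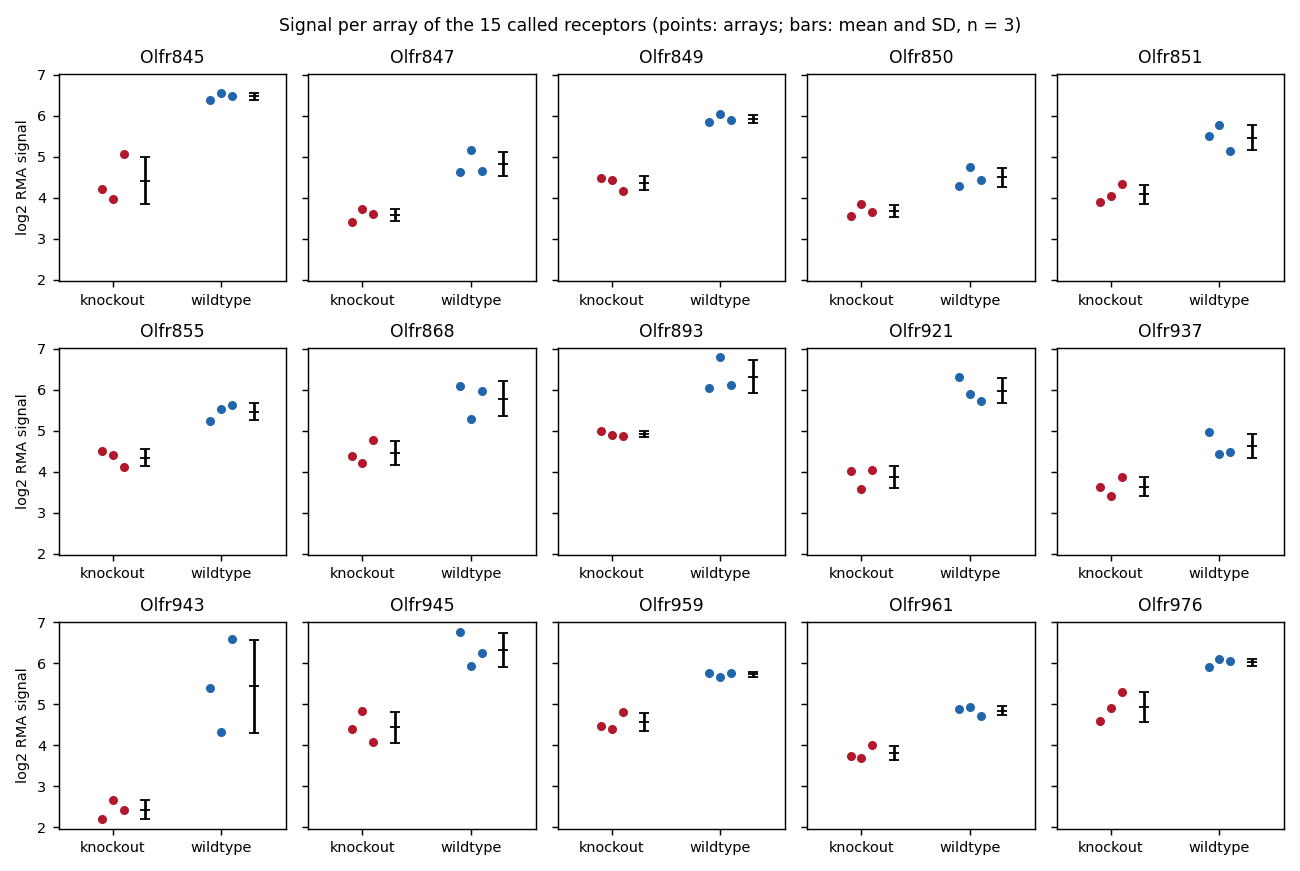
Log2 RMA signal (vertical axis) of the 15 receptors that fell, 1 panel each, with the 3 arrays labelled knockout on the left and the 3 wildtype arrays on the right as points and the mean and SD as bars. No knockout point reaches a wildtype point in any panel, which the choice by that difference favours, and Olfr943 shows the widest wildtype spread, 4.34 to 6.60.

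Within this block, some members next to each other in chromosome order had unlike values and others like ones. Genes that are not members can lie between them. Olfr836 and Olfr837 were both at -0.43, and Olfr847 and Olfr849, described above, both fell. Olfr872, of the MOR145 family, was at 4.89, 3.25 and 3.06 in the arrays labelled knockout and at 2.96, 2.84 and 2.96 in wildtype arrays. Knockout replicate 1 alone stood far above, and the difference of 0.81 had limma adjusted p = 0.668. Olfr873, the next member and of the same family, was at 2.90, 2.59 and 4.43 in the arrays labelled knockout and at 5.31, 5.78 and 5.48 in wildtype arrays. Its log2 difference of -2.22 was the lowest of the block, but knockout replicate 3 stood above the others and limma adjusted p was 0.0748. Without knockout replicate 3 it was -2.78 with limma adjusted p = 0.00501. Olfr873 is named after its values were seen. Olfr846, a MOR149 receptor next to Olfr847, was at 2.91, 3.11 and 4.40 in the arrays labelled knockout and at 3.11, 4.37 and 2.15 in wildtype arrays, with wide and overlapping spread (0.26; limma adjusted p = 0.952). Olfr853 at 0.14 and Olfr860 at -0.09 lay nearest to 0, Olfr860 with values from 4.08 to 4.29 in the arrays labelled knockout and from 4.20 to 4.32 in wildtype arrays. Olfr843 at -0.80 and Olfr866 at -0.59 had overlapping groups. Across 20 neighbouring pairs the median gap between differences was 0.69, and Pearson's r between neighbours was -0.37, a description over receptors that share the same 6 arrays. The block's differences had an SD of 0.74, a measure unlike the gap, and the gap between unrelated members was not computed.

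The 58 receptors from Olfr874 to Olfr986 had a median log2 difference of -0.48, with 48 negative and 10 positive. Among them 8 fell (13.8%), and they are spread over 41 neighbouring members from Olfr893 to Olfr976. The block mean was 4.10 ± 0.07 (SD, n = 3) in the arrays labelled knockout, between 4.04 and 4.18, and 4.72 ± 0.11 (SD, n = 3) in wildtype arrays, between 4.65 and 4.84. The count of 8 was 3 when knockout replicate 1 was left out, 4 for knockout replicate 3, and 5 for knockout replicate 2 or wildtype replicate 3. It was 3 when the unannotated probe sets were tested too, and with Y-linked signal as a covariate 5. The 5 without knockout replicate 2 include Olfr916, which was not among the 8. Over the whole series the share that fell was 0.620% to 1.12% in these fits, against the 1.90% given above.

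Olfr921, of the MOR165 family, was at 4.0, 3.57 and 4.03 in the arrays labelled knockout and at 6.31, 5.90 and 5.72 in wildtype arrays. The highest knockout array lay far below the lowest wildtype array. It fell by 2.11 (SE 0.19; limma adjusted p = 0.00492), a 4.30-fold lower signal, and by limma it remained past the threshold without any single array (highest adjusted p = 0.0224, without knockout replicate 1). Olfr959 and Olfr961, MOR224 receptors that follow each other in the order of members, had differences of similar size. Olfr959 was at 4.48, 4.40 and 4.82 in the arrays labelled knockout and at 5.77, 5.67 and 5.77 in wildtype arrays (-1.17, SE 0.12; limma adjusted p = 0.00749). Olfr961 was at 3.74, 3.68 and 4.0 in the arrays labelled knockout and at 4.88, 4.94 and 4.72 in wildtype arrays (-1.04, SE 0.12; limma adjusted p = 0.00807). In both, all wildtype arrays lay above all arrays labelled knockout, and limma's adjusted p stayed at or under 0.0381 for Olfr959 and 0.0447 for Olfr961 with any array left out. Array clusters that name several genes also list Olfr961 and Olfr869, so related copies may share probes with these receptors.

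Olfr943, of the MOR171 family, had the largest measured fall of the 79. It was at 2.21, 2.67 and 2.41 in the arrays labelled knockout and at 5.40, 4.34 and 6.60 in wildtype arrays. The knockout values lie near the lowest signals of the table, which start at 1.53, and the wildtype arrays differ widely among themselves. The log2 difference was -3.02 (SE 0.51; limma adjusted p = 0.0382), and the call was lost in 4 of 6 fits that each lacked 1 array (up to 0.153, when knockout replicate 1 was missing). Olfr945, the next member and also MOR171, was at 4.40, 4.85 and 4.08 in the arrays labelled knockout and at 6.78, 5.94 and 6.27 in wildtype arrays (-1.89, SE 0.26; limma adjusted p = 0.0180). Olfr937, MOR171, was at 3.63, 3.41 and 3.86 in the arrays labelled knockout and at 4.97, 4.43 and 4.47 in wildtype arrays (-0.99; limma adjusted p = 0.0488). It was the last of the block inside the threshold, and Olfr907 of the MOR165 family, at -1.28 (limma adjusted p = 0.0740), the first outside. Olfr893, of the MOR170 family, was at 4.99, 4.88 and 4.86 in the arrays labelled knockout and at 6.04, 6.78 and 6.12 in wildtype arrays (-1.40, SE 0.20; limma adjusted p = 0.0184). Olfr976, of the MOR224 family, was at 4.59, 4.92 and 5.31 in the arrays labelled knockout and at 5.92, 6.10 and 6.05 in wildtype arrays (-1.09, SE 0.18; limma adjusted p = 0.0345). None of these receptors had overlapping groups. In the 6 fits that each lacked 1 array, the limma call was lost for Olfr945 in 3 (adjusted p up to 0.0826, without knockout replicate 1), Olfr893 in 3 (0.0850, without knockout replicate 3), Olfr976 in 5 (0.118, without knockout replicate 2) and Olfr937 in 6 (0.173, without knockout replicate 1).

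Receptors of this block that were not called ranged widely. Olfr958, a MOR224 receptor beside Olfr959, had the largest positive difference of the 79, at 6.64, 6.75 and 7.22 in the arrays labelled knockout and at 6.25, 4.90 and 6.83 in wildtype arrays. The groups overlapped, wildtype replicate 2 was far below the rest, and the difference of 0.88 had limma adjusted p = 0.640. Olfr975, also MOR224, at 0.32 and Olfr980, MOR223, at 0.26 had overlapping groups too. Olfr969, a MOR171 receptor, was at 5.35, 7.06 and 5.01 in the arrays labelled knockout and at 6.98, 7.96 and 8.61 in wildtype arrays. Its difference of -2.05 was 4.13-fold, but knockout replicate 2 reached the wildtype range and limma adjusted p was 0.25. Olfr969, Olfr873, Olfr845, Olfr921 and Olfr943 were the 5 members with signal at least 4-fold lower. Olfr972, MOR171, was at -0.23 and Olfr898, MOR170, at -0.79, both with overlapping groups, and Olfr926 at -0.03 and Olfr906 at 0.03 lay nearest to 0. Across 57 neighbouring pairs the median gap between differences was 0.63 and Pearson's r between neighbours was -0.11.

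**Figure D3:**
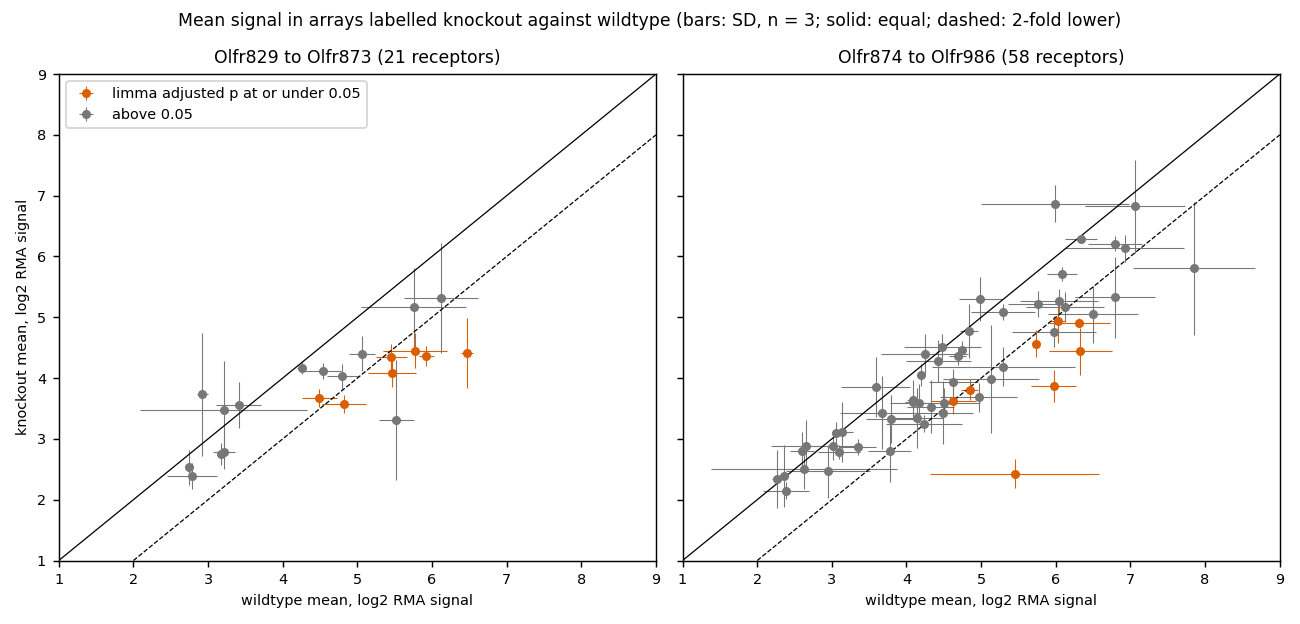
Mean log2 RMA signal in the arrays labelled knockout (vertical axis) against the mean in wildtype arrays (horizontal axis) for the 21 and the 58 receptors of the blocks, with bars for the SD (n = 3), a solid line of equal signal and a dashed line of 2-fold lower signal. Most points lie under the solid line, and 11 of the 15 receptors that fell are among the 27 with the highest wildtype signal.

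Between the blocks, the change with genotype was compared array by array. The mean of the Olfr829 to Olfr873 block minus that of the Olfr874 to Olfr986 block was -0.26 ± 0.12 (SD, n = 3) in the arrays labelled knockout and -0.15 ± 0.15 (SD, n = 3) in wildtype arrays. Its values ran from -0.38 to -0.14 in the arrays labelled knockout and from -0.29 to 0.00 in wildtype arrays, so the genotypes overlapped. The share that fell was 33.3% against 13.8%, and the difference between these shares was not tested. The median SD between wildtype arrays was 0.24 in the first block and 0.37 in the second, and the median SE of the differences 0.16 and 0.24, and their part in the counts of calls was not tested.

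The median difference was smallest among the receptors of low wildtype signal, though single ones such as Olfr916 at -0.98 and Olfr872 at 0.81 lay far from 0. For the 26 dimmest in wildtype arrays, from 2.27 to 4.14, the median difference was -0.22, and 0 fell (limma) while 9 were positive. For the middle 26, from 4.16 to 5.30, it was -0.67, and 4 fell. For the 27 brightest, from 5.45 to 7.85, it was -1.17, and 11 fell while 1 was positive. The wildtype value enters both the split and the difference, so the order of these medians is partly set by the split. All 79 receptors lay below the median signal of all clusters, and 7, all of the second block, lay above the 25th percentile. No detection call per cluster was used here.

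By family, the 79 receptors carry 23 family numbers, none of which occurs in both blocks, and 15 families had at least 2 members. MOR171, the family of M71, was the most numerous with 18 members, a median of -0.58 and a range from -3.02 to 0.07. Olfr937, Olfr943 and Olfr945 fell in it. MOR224 had 6 members from -1.17 to 0.88, and Olfr959, Olfr961 and Olfr976 fell. MOR223, with 5 members, had a median of -0.05 and none that fell (limma), and MOR162, with 6 members, a median of -0.34 and none that fell (limma). The 5 members of MOR165 were all negative, with a median of -0.99, and Olfr921 fell. The 3 members of MOR152 ranged from -0.43 to -0.21. Receptors of 1 family resemble each other in sequence, so probes can read more than 1 of them and single values are uncertain.

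**Figure D4:**
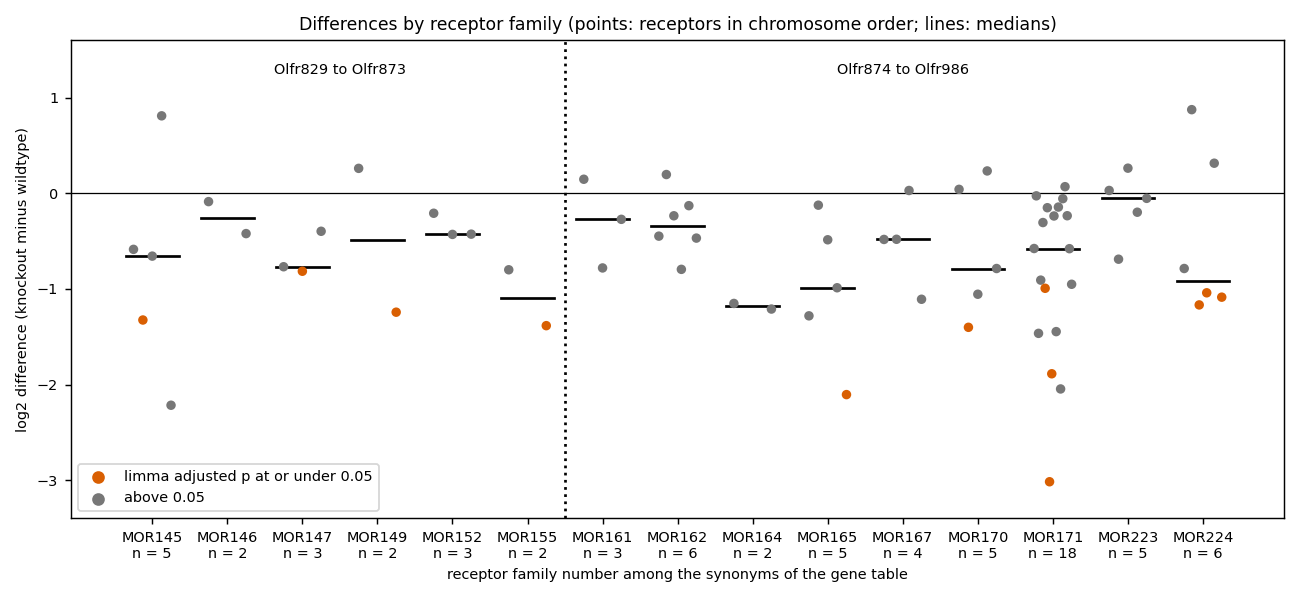
Log2 difference (knockout minus wildtype, vertical axis) of the receptors of each family with at least 2 members (horizontal axis), with a line at the family median and orange for those that fell. Of the families with a receptor that fell, MOR147, MOR155 and MOR165 have no positive member, and MOR171 has the widest range, from -3.02 to 0.07.

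The pools differed in Y-linked signal, which depends on how many male embryos a pool holds. Mean Y-linked signal was 6.96 and 8.08 in knockout replicates 2 and 3 and 7.36 in wildtype replicate 2, against 3.62 in knockout replicate 1 and 3.73 and 3.83 in wildtype replicates 1 and 3. Among the arrays of low Y-linked signal, knockout replicate 1 was set against the mean of wildtype replicates 1 and 3. The difference was negative for 67 of the 79 receptors (9455 of all 16661 clusters), with a median of -0.66. Where Y-linked signal was high, the mean of knockout replicates 2 and 3 was set against wildtype replicate 2. That difference was negative for 66 receptors (10286 of all clusters), with a median of -0.51. These differences share no array. In both, 58 receptors were negative, beside 466 of the 632 other odorant receptors and 6378 of all 16661 clusters. The 15 that fell are among the 58 by construction, since their groups do not overlap on any array. With Y-linked signal as a covariate, 10 of the 15 kept an adjusted p at or under 0.05 in limma. Olfr855 (0.0546), Olfr868 (0.125), Olfr937 (0.133), Olfr943 (0.0939) and Olfr945 (0.0502) did not. Across receptors the differences in the low and the high set had Pearson's r = 0.79 and Spearman's rho = 0.77 over the 21 of the first block. Over the 58 of the second these were 0.47 and 0.49. This describes receptors that share arrays and probe families. Olfr943 was at -3.80 and -1.80, Olfr921 at -2.01 and -2.10, and Olfr849 at -1.39 and -1.74 in the low and the high set. Olfr958 was at 0.10 and 2.08 and Olfr872 at 1.93 and 0.32.

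**Figure D5:**
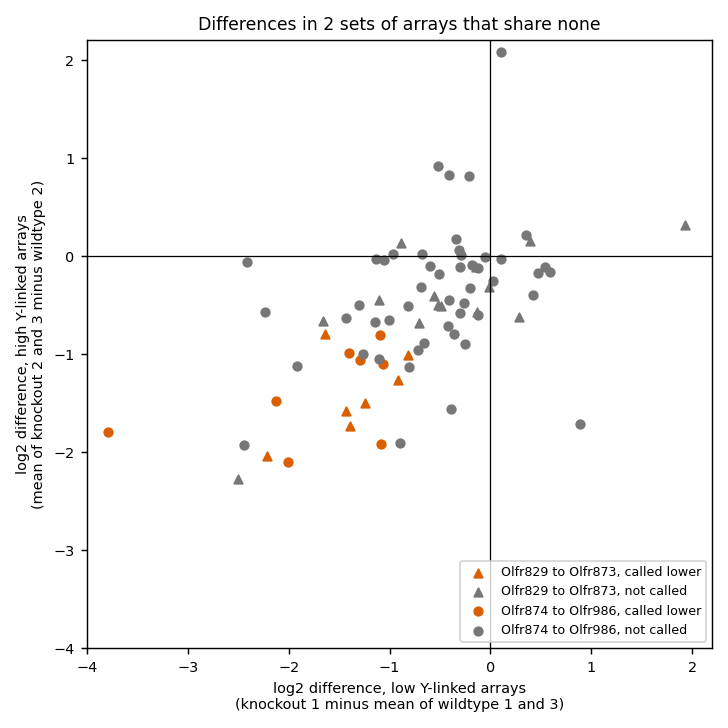
Log2 difference of each receptor in the arrays of low Y-linked signal (horizontal axis, knockout 1 minus the mean of wildtype 1 and 3) and of high Y-linked signal (vertical axis, mean of knockout 2 and 3 minus wildtype 2), as triangles for Olfr829 to Olfr873 and circles for Olfr874 to Olfr986. All 15 receptors that fell, in orange, lie below 0 on both axes, as the lack of overlap between their groups requires, and 58 of the 79 receptors do in all.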

How the data were processed

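The deposited values are log2 signals. The authors made them by RMA with the Expression Console program, as the submitters' processing notes name it, and the sources used here give neither its version nor a genome build. RMA subtracts background, equalizes the distributions of the arrays and summarizes all probes of a cluster, which hides changes limited to some exons. Labelled targets for the exon arrays were made from 2.7 ug of total RNA, per the labels' protocols.

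Of 23238 probe sets, the 16661 in the annotated numbering range were tested: 14939 with 1 gene, 989 with several and 733 with none. Of those with several genes, 6 name a receptor numbered in this range and are not members. All 79 members were found by Entrez identifier in the RefSeq gene table (GRCm38.p6), and 0 symbols changed. Where a gene had more than 1 cluster, the one of highest mean signal was used.

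The limma package (3.58.1, under R 4.3.3; lmFit and eBayes, two-sided) gave each difference as knockout minus wildtype, adjusted by Benjamini-Hochberg over the 16661 clusters, with a threshold of 0.05. Tested on simulated data (16661 genes, 3 arrays a group), it found 32% of the genes changed 1.5-fold and 70% of those changed 2-fold. It found 94% at 4-fold and 100% at 8-fold, and made 5 false calls. The changed genes were drawn from all clusters, whose median SE was 0.11, against 0.23 for the 79 receptors. The shares found therefore need not hold for the receptors. Array pairs correlated at 0.975 to 0.991 and shared at most 9 identical values, so each was 1 replicate. Lists and blocks are described by counts and medians, with no list test. Alternatives were other scalings and filters, variance priors, a Y-linked covariate, the replicate number as a block and each array left out.

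The members and lists were chosen with earlier results of these data known. Named receptors are, per block, those called (up to 8), the 3 brightest, the 3 with the largest positive difference, the 2 nearest 0 and those next to the threshold. The rule also names pairs of highest protein identity, which were not analysed here.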

Additional observations from a re-analysis of the deposited data

How the results depend on the processing

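The block medians stayed negative under every alternative run, and no receptor that fell turned its sign. With 1 array left out that sign was fixed in advance, since the groups of these receptors do not overlap. Testing all probe sets, other variance priors and the replicate block leave the differences themselves unchanged by construction. The count of 15 receptors that fell was 6 with all probe sets tested, 7 with the replicate block, 10 with Y-linked signal as a covariate, and 5 to 12 with 1 array left out. Over the whole series the share that fell, 1.90% at first, was 0.620%, 1.01% and 1.12% in turn, and 0.870% to 1.34% with 1 array left out. Of the 15 themselves, 5 to 11 were called with 1 array left out. Olfr873, Olfr916, Olfr920, Olfr923 and Olfr985 were called in some of those fits alone, and the counts here and per block include them. For Olfr829 to Olfr873 the count of 7 was 3 with all probe sets tested and 2 to 5 with 1 array left out. For Olfr874 to Olfr986 the count of 8 was 3 with all probe sets tested, 2 with the replicate block, 5 with Y-linked signal as a covariate, and 3 to 7 with 1 array left out. The cause was not tested. A filter at the 25th percentile of mean signal left 7 members, all of the second block and none of them among the 15, so its count of 0 shows no loss of a call. The median of Olfr829 to Olfr873 ran from -0.85 to -0.59 and that of Olfr874 to Olfr986 from -0.57 to -0.49 with 1 array left out, and for the second block it was -0.58 over the 7 members above the percentile filter. Signs turned for uncalled receptors. With Y-linked signal as a covariate Olfr846 was at -0.19, Olfr926 at 0.14 and Olfr906 at -0.055, and with arrays centred on their median Olfr926 was at 0.0097. With 1 array left out Olfr846 ran from -0.27 to 0.84, Olfr853 from -0.028 to 0.35, Olfr972 from -0.68 to 0.11, Olfr926 from -0.31 to 0.16 and Olfr906 from -0.25 to 0.23. Same-numbered arrays did not deviate together over all clusters (correlations of 0.0074, 0.049 and -0.17). With 3 arrays per genotype these values cannot decide whether same-numbered pools share a litter or a day, and the labels do not say. Low signal and 3 arrays per genotype limit single receptors.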
